A study of Caenorhabditis elegans with 2 samples.

Results

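The 10 genes described here encode the small GTPase RAB-3 of synaptic vesicles, its activator, and the scaffold, kinase and ligase proteins that build the presynaptic active zone of Caenorhabditis elegans: rab-3, aex-3, unc-10, rimb-1, elks-1, cla-1, syd-2, syd-1, sad-1 and rpm-1. The rule for choosing them is a list of names by function and uses no measured value, although the list was drawn up with earlier results of these data known. They are 10 of 19973 protein-coding genes in the annotation. The data are chromatin immunoprecipitation with sequencing (ChIP-seq) of CEH-48, a homeodomain transcription factor of the ONECUT (cut) family. The libraries are 2 biological replicates of 1 group, with no other condition: whole embryos of both sexes at a late embryonic stage. They are of strain OP631, which carries unc-119(tm4063) on chromosome III and the insertion wgIs631 and makes CEH-48 with a C-terminal GFP-FLAG tag, and were taken 3.5 hours after synchronization by egg bleaching. The values come from 1 transgenic line and from all cells of the embryo together, and the promoter of the transgene is not named in the labels. For each gene, a region of the deposited lists was counted when its summit, the point of highest enrichment, lay in the gene body or within 3 kb upstream of the 5′ end. The authors' reproducible set holds 1840 regions (IDR regions, from a method that compares ranks between replicates), with signal from 85.2 to 1044 and a median of 141. These are the 1840 pooled regions of highest signal, and 68.3% of them ranked among the 1840 strongest of both replicates. A single IDR region can thus rank differently in the 2 replicates. The signal is the value the authors' peak caller gave each region. Each list has its own scale, which is not stated, so the strength of regions is compared only within a list. The difference in signal between the replicates is given as an offset, which includes any difference in scale.

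At a presynaptic active zone, synaptic vesicles dock and fuse opposite the receiving cell. RAB-3 in its GTP-bound form sits on vesicles, AEX-3 loads it with GTP, and UNC-10 (RIM) binds it and ties the vesicle to the release site. RIMB-1 (RIM-binding protein), ELKS-1 and CLA-1 (clarinet, a relative of the vertebrate scaffolds Piccolo and Bassoon) are further active zone scaffolds. SYD-1 and SYD-2 (liprin-alpha) start the assembly of the zone, the kinase SAD-1 shapes vesicle clusters and neuronal polarity, and RPM-1 is a ubiquitin ligase that restrains presynaptic growth.

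CEH-48 had an IDR summit at 6 of the 10 genes, rab-3, aex-3, rimb-1, cla-1, syd-2 and syd-1, with 8 summits in all because rimb-1 held 3. By the same rule, 12% of all protein-coding genes had an IDR summit, or 13.5% when 3 kb on the downstream side of the 5′ end was also counted for genes shorter than that. None was counted at unc-10, elks-1, sad-1 or rpm-1. The 100 bases around the strongest IDR summit of each of the 6 genes are shown because they let the reader see which summits carry ATCGAT, the core sequence that cut homeodomain proteins bind. They were read from the RefSeq WBcel235 sequence (ce11) in the direction of the gene, with ATCGAT in capitals.

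rab-3, chrII:5725212-5725311, minus strand: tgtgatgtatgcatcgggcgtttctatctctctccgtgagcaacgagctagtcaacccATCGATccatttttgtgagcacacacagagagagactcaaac

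aex-3, chrX:760772-760871, minus strand: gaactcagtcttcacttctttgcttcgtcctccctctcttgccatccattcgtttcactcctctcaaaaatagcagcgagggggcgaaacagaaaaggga

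rimb-1, chrIII:1805737-1805836, plus strand: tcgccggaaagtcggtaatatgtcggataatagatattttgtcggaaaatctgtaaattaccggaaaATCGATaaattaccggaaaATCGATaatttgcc

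cla-1, chrIV:7611514-7611613, plus strand: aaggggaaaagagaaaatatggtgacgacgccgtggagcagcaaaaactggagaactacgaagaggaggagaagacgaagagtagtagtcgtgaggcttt

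syd-2, chrX:10555603-10555702, minus strand: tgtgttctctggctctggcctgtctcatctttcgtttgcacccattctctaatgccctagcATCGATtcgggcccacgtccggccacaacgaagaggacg

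syd-1, chrII:7593356-7593455, minus strand: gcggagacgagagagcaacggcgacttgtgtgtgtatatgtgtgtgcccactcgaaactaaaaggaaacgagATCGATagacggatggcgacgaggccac

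Of these 6 sequences, those of rab-3, rimb-1, syd-2 and syd-1 hold ATCGAT, and those of aex-3 and cla-1 do not.

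The RAB-3 GTPase gene and its activator each had 1 IDR summit, in different kinds of place. The rab-3 gene lies on chromosome II from 5721767 to 5727853 on the minus strand, with 2 annotated transcripts. Its IDR region, from 5725180 to 5725306, had signal 229.9 in the reproducible set, 72.2 in replicate 1 and 157.5 in replicate 2. The summit, at 5725262, lay 2591 bp inside the gene, in the first intron of the long transcript C18A3.6a.1, and 532 bp upstream of the start of the short transcript C18A3.6b.1. No other protein-coding gene held this summit in its window, and no other IDR summit lay within 42092 bp of the edge of the rab-3 window. A weaker region at 5723807, further inside the gene, had pooled signal 60.6, below the IDR minimum, and 1 copy of ATCGAT.

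The aex-3 gene, which encodes the exchange factor for RAB-3, lies on chromosome X from 751203 to 759734 on the minus strand. Its IDR region, from 760637 to 761006, had signal 125 in the reproducible set, 29.1 in replicate 1 and 92.9 in replicate 2. The summit lay 1088 bp upstream of the 5′ end of aex-3 and was also in the window of dyf-11, a ciliary transport gene, although aex-3 has the nearest 5′ end. It ranked 1696th in replicate 1, the lowest rank of the 8 summits there, and 1069th in replicate 2. The 4 other pooled regions at aex-3 had signals from 23.7 to 34.5.

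Of the 4 scaffold genes, rimb-1 and cla-1 had IDR summits, and unc-10 and elks-1 had none. The rimb-1 gene, on chromosome III from 1788333 to 1807147 on the plus strand, held the strongest and the weakest of the 8 summits. The strongest region, from 1805425 to 1806001, had signal 423 (rank 73 of 1840), 138 in replicate 1 (rank 46) and 312 in replicate 2 (rank 75). Its summit lay 17454 bp inside the gene, in intron 16 of transcript Y39A3CL.2.1. A second region, from 1806531 to 1806709, had signal 120.2, with 36.5 in replicate 1 and 92.8 in replicate 2, and its summit fell at the edge of intron 19. The third, from 1793454 to 1793823, had its summit on the first base of a coding exon, 5306 bp inside the gene. It had signal 119, 46.7 in replicate 1 and 71.3 in replicate 2, where the summit, at 5301 bp, fell in the intron before that exon. The 5′ end of clp-4, outside rimb-1, lies nearer to the 2 summits at the 3′ end of the gene than that of rimb-1 does, at 12536 and 11736 bp.

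The strongest rimb-1 region lies in a tandem array of ATCGAT. Its 577 bases hold 14 copies, a number that 15 of the 1840 IDR regions reach or pass, and 7 of the 13 steps from one copy to the next are 19 bp, 4 are 38 bp, 1 is 76 bp and 1 is 18 bp. The region at intron 19 holds 4 copies in 179 bases, a number that 204 of the 1840 IDR regions reach or pass. All 3 steps between its copies are 19 bp. The commonest context in these regions was ccggaaaATCGATa, with 4 copies. The middle 300 bases of the strongest region hold 9 copies, and 213 of these bases are marked as repeats in the RefSeq sequence. This stretch was chosen after its values were seen and is shown because the period can be read from it.

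rimb-1 intron 16, chrIII:1805563-1805862, plus strand: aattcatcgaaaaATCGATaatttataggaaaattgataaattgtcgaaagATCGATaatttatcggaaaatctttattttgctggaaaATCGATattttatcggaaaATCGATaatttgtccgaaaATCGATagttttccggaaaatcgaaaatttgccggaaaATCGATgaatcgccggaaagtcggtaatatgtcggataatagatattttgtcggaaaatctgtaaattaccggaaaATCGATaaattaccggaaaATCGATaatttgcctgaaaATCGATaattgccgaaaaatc

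Further IDR regions had summits 335 and 571 bp past the 3′ end of rimb-1, outside the counted window. The first of them, from 1807097 to 1807529, overlaps the 3′ end of the gene at 1807147. The signals of these regions were 582 and 348, and they hold 14 and 9 copies of ATCGAT. In these, 9 of 13 and 6 of 8 steps between copies are 19 bp. In replicate 1 their signals were 198 and 126, and in replicate 2 they were 389.9 and 226. How reads from such repeats were placed was not tested, since alignments were not analysed here.

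The scaffold gene cla-1 is the longest of the 10, at 39308 bp, on chromosome IV from 7588931 to 7628238 on the plus strand, with 6 transcripts. Its IDR region, from 7611379 to 7611748, had signal 151 in the reproducible set, 51.1 in replicate 1 and 103.9 in replicate 2. The summit lay in a coding exon 22633 bp from the 5′ end and 884 bp downstream of the start shared by the shorter transcripts F45E4.3c.1 and F45E4.3d.1. The protein-coding gene with the nearest 5′ end was F45E4.5, at 17478 bp. A stronger IDR region, with signal 229 (59.03 in replicate 1 and 172 in replicate 2) and 1 copy of ATCGAT, lay 3287 bp upstream of the 5′ end, 287 bp outside the counted window, where cla-1 has the nearest 5′ end. The 100 bases around the summit inside the gene hold no ATCGAT, and the whole region holds 2 copies.

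At the RIM gene unc-10 (chromosome X from 7272317 to 7280322, minus strand) the pooled list held 5 regions, with signals from 21.7 to 47.9. The strongest lay 1247 bp upstream of the 5′ end, with 15.4 in replicate 1 (rank 8645) and 27.5 in replicate 2 (rank 9798). An IDR summit lay 4534 bp upstream, 1534 bp outside the counted window, and unc-10 had the nearest protein-coding 5′ end. That region had signal 119, 19.5 in replicate 1 (rank 4359) and 100.4 in replicate 2 (rank 942), with 1 copy of ATCGAT. At elks-1 (chromosome IV from 3342515 to 3350027, minus strand) the 7 pooled regions had signals from 20.7 to 42.05, and the nearest IDR summit lay 15927 bp beyond the window.

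**Figure D1:**
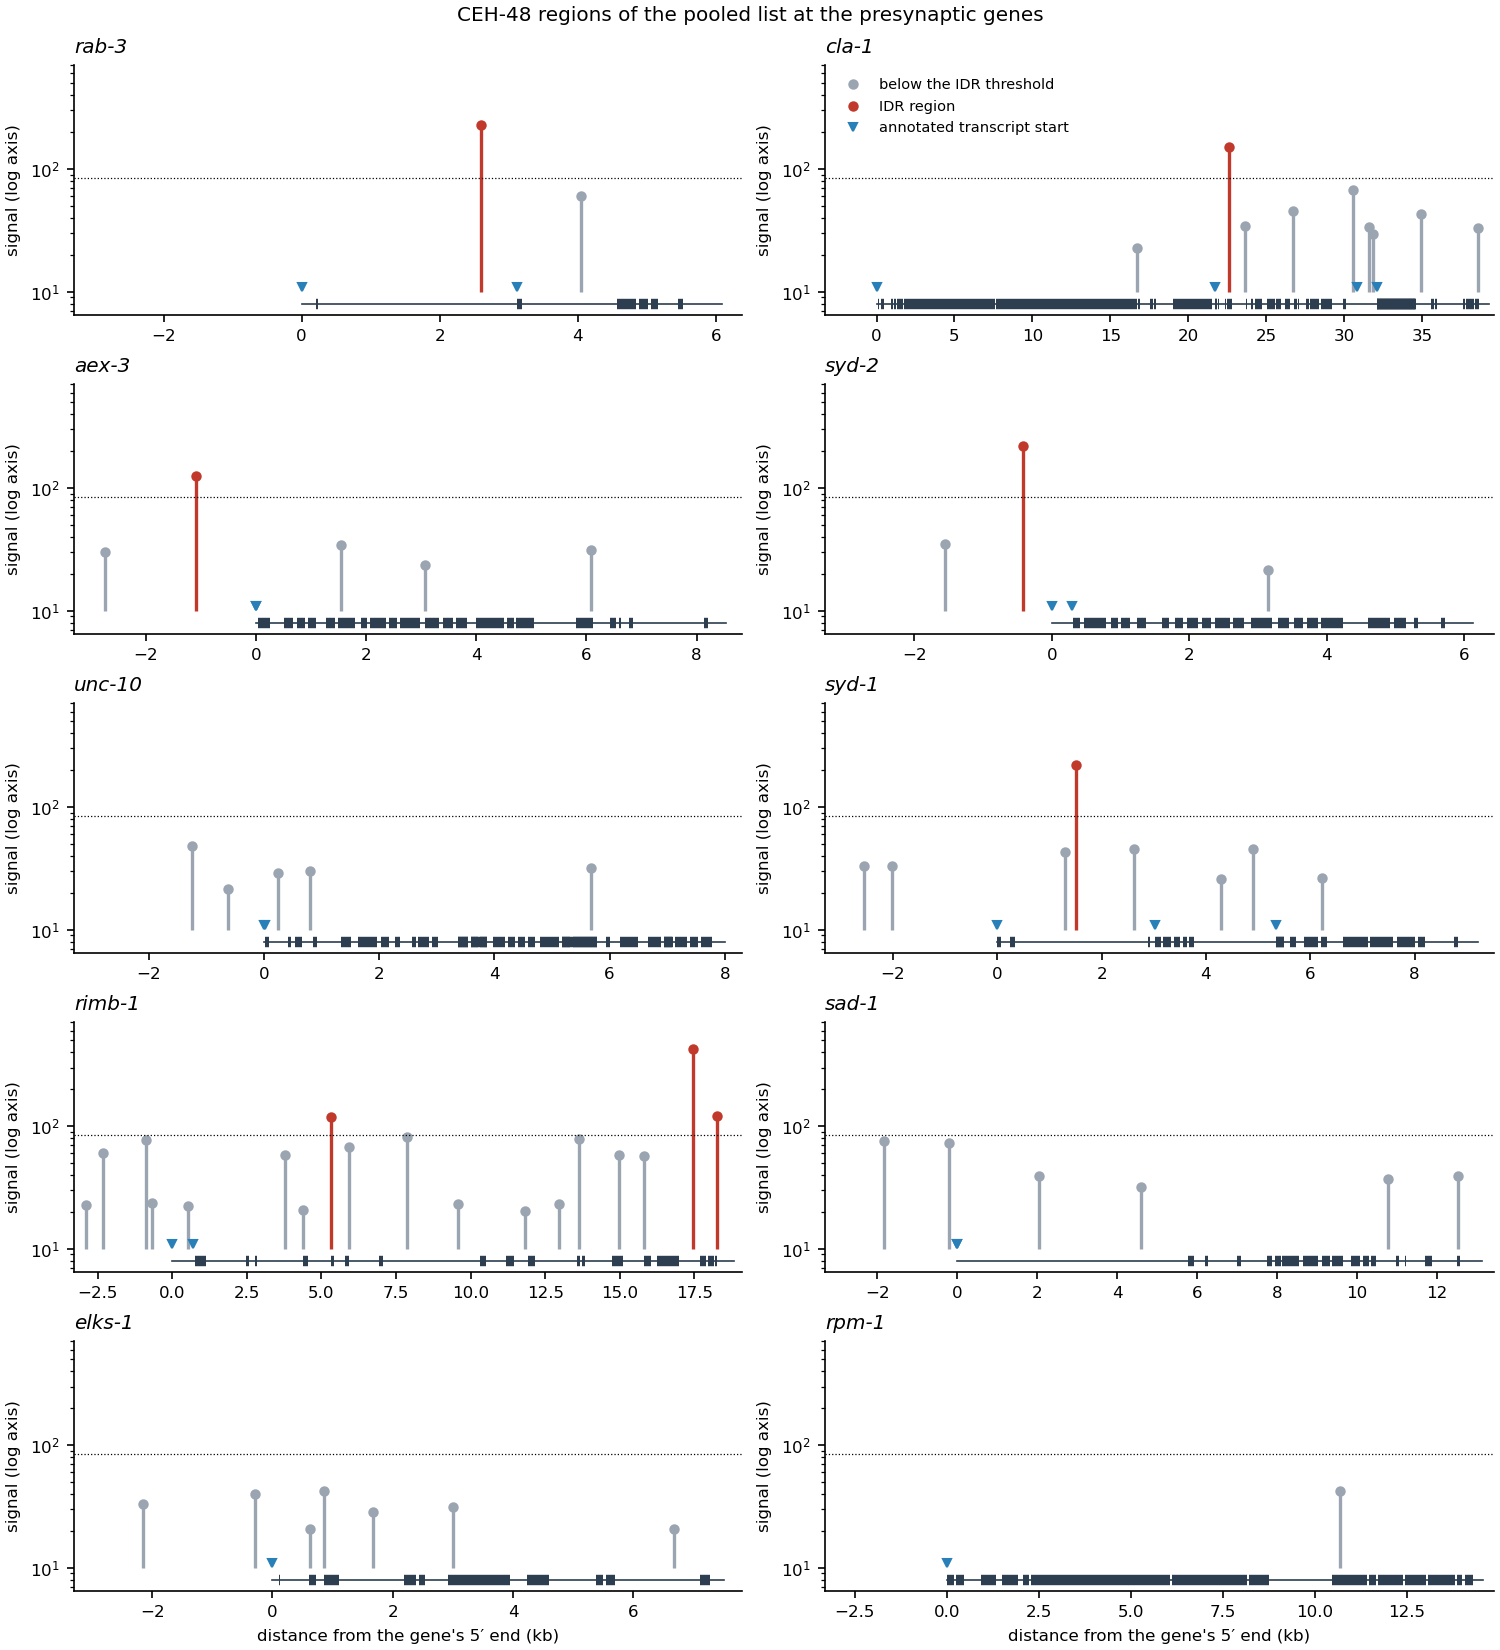
Regions of the pooled list along the 10 genes, as distance of the summit from the 5′ end in kb against signal on a log axis; red marks IDR regions, grey marks regions below the IDR minimum of 85.2 (dotted line), dark boxes are coding exons and blue triangles are annotated transcript starts. Red summits stand upstream of syd-2 and aex-3 and inside rab-3, syd-1, rimb-1 and cla-1, and rpm-1 has 1 grey region.

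Both genes that start active zone assembly had an IDR summit. The liprin gene syd-2, on chromosome X from 10549106 to 10555239 on the minus strand, was the only member with an IDR summit in the 1000 bp upstream of the 5′ end. Its region, from 10555560 to 10555729, had signal 219 in the reproducible set, 46.4 in replicate 1 and 174 in replicate 2, with the summit 414 bp upstream. The syd-1 gene lies on chromosome II from 7585695 to 7594912 on the minus strand. Its region, from 7593317 to 7593498, had signal 221 in the reproducible set, 42.1 in replicate 1 and 179.8 in replicate 2. The summit lay 1506 bp inside the gene, in intron 2 of transcript F35D2.5a.1, from 7592025 to 7594566.

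The syd-1 and syd-2 regions share a feature that few IDR regions have. Each lies wholly inside a short annotated noncoding RNA gene, F35D2.16 (279 bp, on the strand opposite to syd-1) and F59F5.9 (199 bp, on the strand of syd-2). Of all 1840 IDR regions, 9 (0.489%) lie wholly inside an annotated gene of this class, and these are 2 of the 9. That share depends on region width. The syd-2 and syd-1 regions are 170 and 182 bp wide, whereas 1147 IDR regions are 370 bp or wider and could not lie inside genes of these 2 lengths. The share of IDR regions that only overlap such a gene is not given here. This was noticed after the values were seen, and RNA from these loci is not part of the data.

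The kinase gene sad-1 and the ligase gene rpm-1 had no IDR summit. At sad-1 (chromosome X from 13487552 to 13500668, minus strand) the regions at 1838 and 211 bp upstream of the 5′ end had pooled signals 75.1 and 72.8, ranks 2217 and 2298, against the IDR minimum of 85.2. In replicate 1 their signals were 19.3 and 24.4 (ranks 4470 and 2449), and in replicate 2 they were 57.7 and 46.2 (ranks 2092 and 3071). At rpm-1 (chromosome V from 8805399 to 8819955, minus strand) the pooled list held 1 region in 17557 bp of window, in a coding exon, with signal 42.6. Replicate 2 held that region with signal 42.6 and a further one, and replicate 1 listed no region at rpm-1. Among the genes with the longest 10% of windows, 17.3% had no more pooled regions than rpm-1, and 3.05% had at least the 18 of rimb-1.

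All 8 IDR summits had a summit within 100 bp in the list of each replicate, and all 8 ranked among the 1840 strongest regions of both replicates. Of all IDR regions, 68.3% did so. The IDR set was derived from these lists, so its presence in them is no independent check. Replicate 2 signals exceeded replicate 1 signals by 1.37 ± 0.49 log2 units (SD over 8 summits, 3 of them at rimb-1) at these genes and by 1.44 ± 0.58 over the 1737 IDR regions found in both lists. The whole lists also differed, with median signals 12.9 in replicate 1 and 22.8 in replicate 2, so the offset is not particular to these genes. Among the 8 summits, the difference was smallest at the rimb-1 exon summit (0.61) and largest at syd-1 (2.10). The replicates also gave different orders: rab-3 ranked 324th in replicate 1, above syd-2 (756th) and syd-1 (909th), whereas in replicate 2 it ranked 492nd, below syd-2 (396th) and syd-1 (369th). With 2 replicates, the order of these 3 genes is not resolved, while the strongest rimb-1 summit was first among the 8 in both. From each replicate alone, the 1840 strongest regions lay at 6 of the 10 genes, the same 6 as in the IDR set, where the share of all protein-coding genes was 11.5% for replicate 1 and 11.9% for replicate 2. The number of reads behind each list, and so the depth, is unknown.

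**Figure D2:**
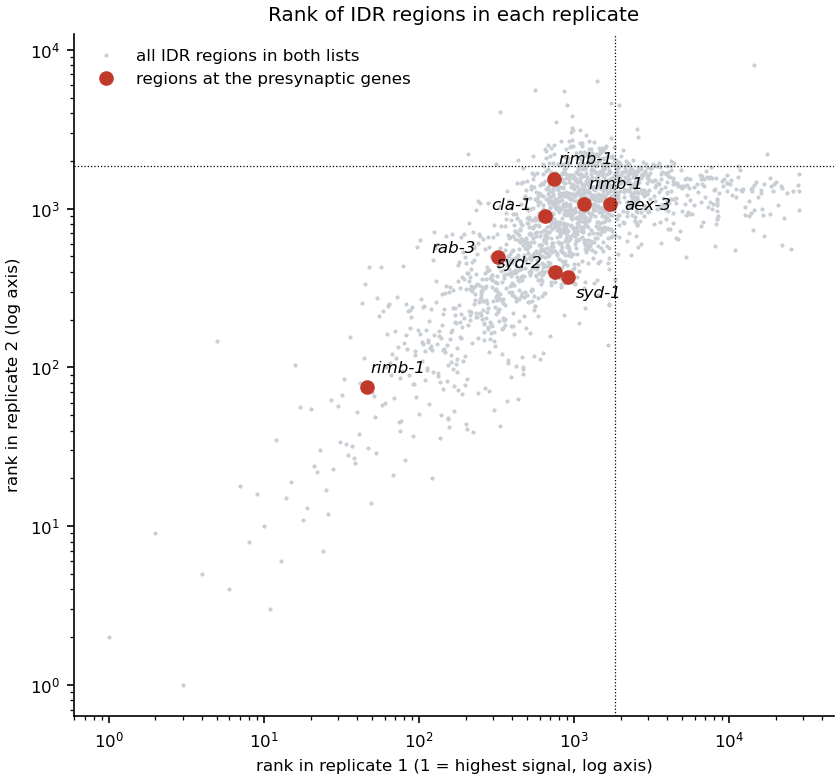
Rank of each IDR region in replicate 1 against its rank in replicate 2, both on log axes, for all 1737 IDR regions found in both lists (grey) and for the 8 at the presynaptic genes (red); dotted lines mark rank 1840. All 8 red points lie within both lines, and the rimb-1 summit at ranks 46 and 75 stands apart from the other 7.

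ATCGAT lay in the 100 bp around 5 of the 8 summits (62.5%), against 44.2% of all 1840 IDR summits, and in 2 of 16 windows of that size centred 500 bp to either side. With 8 summits, of which 2 lie in the rimb-1 array, these shares are a description. The motif reads the same on both strands. In the direction of each gene, it began 9 bp after the summit at rab-3, 12 bp after at syd-2, 23 bp after at syd-1 and 17 and 8 bp after at the rimb-1 intron summits. These positions depend on the summit used. In replicate 2, the 100 bp around the syd-1 summit, at 7593434, hold no copy, whereas those around the rimb-1 exon summit, at 1793634, hold 1. In replicate 1, those around the rimb-1 intron 16 summit at 1805707 hold 3, on both sides of it. The related letters ATTGAT or ATCAAT were in 1 of the 8 windows, that of the rimb-1 exon summit, with 2 copies. The 100 bases at aex-3 and cla-1 hold none of these. Of the 56 pooled summits below the IDR minimum at the 10 genes, 2 carried the motif (3.57%), at rab-3 and rimb-1, beside 9.23% of all such pooled summits.

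**Figure D3:**
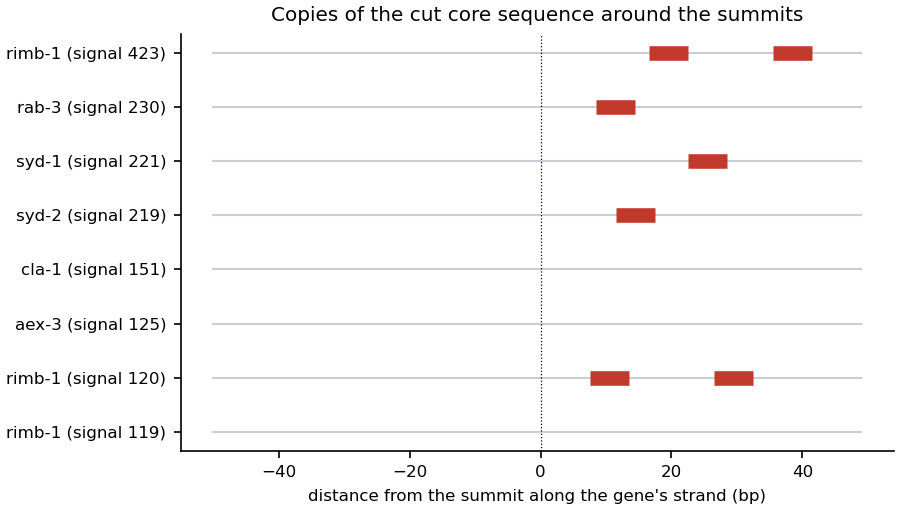
Copies of ATCGAT (red boxes) in the 100 bp around each of the 8 IDR summits, by distance from the summit in bp in the direction of the gene, with rows ordered by IDR signal. Of the 5 strongest summits 4 hold a copy, within 41 bp after the summit, the 2 rimb-1 intron summits each hold a pair of copies 19 bp apart, and the rimb-1 exon summit holds none.

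These genes are long, and longer windows held IDR summits more often. The windows ran from 9087 bp at rab-3 to 42308 bp at cla-1. Among all protein-coding genes, the share with an IDR summit was 7.36% for the shortest 10% of windows and 23.7% for the longest 10%. Of the members, 8 belong to the longest 10%, and 4 of these had an IDR summit. The other 2, rab-3 and syd-2, belong to the next 10%, where 18.7% of genes had one, and both had a summit. Over the 2333 protein-coding genes whose windows are at least as long as that of rab-3, the share was 23.2%. Per length, the members' windows held 4.96 IDR summits per 100 kb, against 2.13 in those long windows and 2.27 in the windows of all protein-coding genes. The 3 rimb-1 summits are part of that rate.

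**Figure D4:**
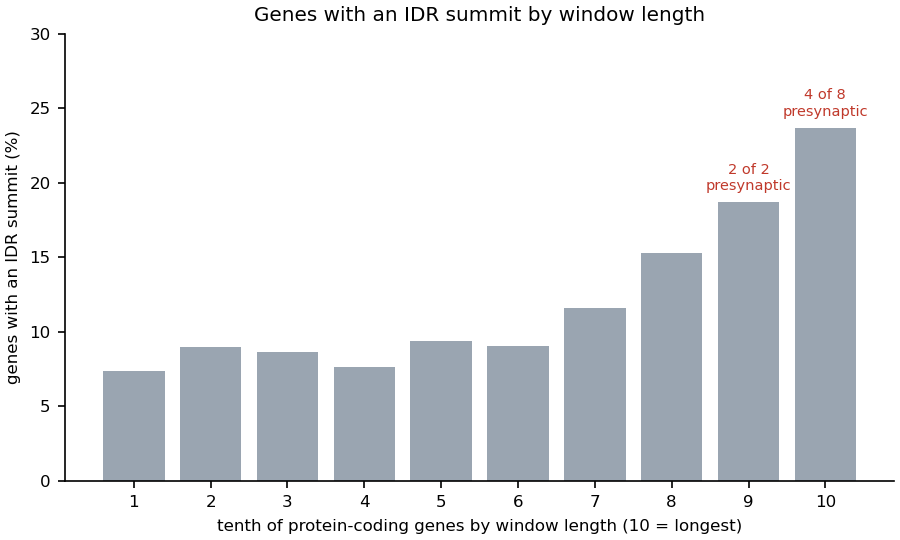
Share of protein-coding genes with an IDR summit in the gene body or 3 kb upstream, in percent, for 10 classes of genes of equal size, from the shortest windows (1) to the longest (10). The share is 7.36% in class 1 and 23.7% in class 10, and the red labels give how many of the presynaptic genes in classes 9 and 10 had a summit.

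All 10 genes held at least 1 region of the pooled list, where 65.4% of all protein-coding genes did. Per length, their windows held 39.7 pooled summits per 100 kb, close to the 37.9 in windows at least as long as that of rab-3. Of 64 pooled regions, 56 were below the IDR minimum, 28 of them in introns, 14 upstream and 14 in coding exons. By design the pooled list also holds background, and these are not counts of binding sites. The same split by place over all pooled regions below the minimum is not given here. Of the 56, 27 (48.2%) had a summit within 100 bp in replicate 1 and 44 (78.6%) in replicate 2. Over all pooled regions below the minimum, the shares were 37.8% and 67.8%. Of the 56, 18 (32.1%) had one in both, against 21.1% of all such regions. The strongest were at rimb-1 (82.2, 78.3 and 77.3), just under the 85.2 at which IDR regions begin, and next came those of sad-1.

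Beyond the 10 members, 14 of 37 further genes of the same pathways (37.8%) had an IDR summit under the same rule, beside the 12% of all protein-coding genes. The median window of the 37 was 9546 bp long, in the class of window length where 18.7% of genes had an IDR summit. By group, the median was 14819 bp for the RAB-3 cycle and vesicle priming, 9012 bp for synapse assembly and 13267 bp for calcium channel subunits. In the classes of those lengths, 23.7%, 18.7% and 23.7% of all genes had an IDR summit. In the RAB-3 cycle and vesicle priming group, 6 of 10 genes had one: rbg-1, a RAB-3 GTPase-activating protein subunit (signal 259), aex-6, which encodes RAB-27 (201), unc-18, the syntaxin partner (444), unc-31, the CAPS gene of dense-core vesicle release (256), tom-1, the tomosyn inhibitor of fusion (214), and cpx-1, complexin (151). All 6 of these summits lay upstream of the gene, from 115 bp at rbg-1 to 2424 bp at cpx-1. The priming factor gene unc-13 and the rabphilin gene rbf-1 had none. Of 13 genes of synapse assembly, 4 had one: the kinesin gene unc-104 of vesicle transport (2 summits, 227 for the stronger), the kinase genes cdk-5 (199) and pct-1 (102), and the receptor phosphatase gene ptp-3 (86.3, near the IDR minimum). The adhesion genes syg-1, syg-2, nrx-1 and nlg-1 had none.

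In the RPM-1 ligase pathway, where rpm-1 itself had none, 2 of 10 genes (20%) had an IDR summit. The share was 15.3% of all genes in the class of its median window, 6904 bp. The 2 genes were ppm-2, a phosphatase gene (signal 418, 977 bp upstream), and the kinase gene mkk-4 (166, 1350 bp upstream). The F-box partner gene fsn-1 and the kinase gene dlk-1 had none. Of 4 calcium channel subunit genes, unc-36 had a summit 648 bp upstream (signal 239.8; 32.1 in replicate 1 and 204 in replicate 2), and unc-2 had one in an intron 31817 bp from its 5′ end (124; 15.7 in replicate 1 and 114 in replicate 2). At unc-2, the 5′ end of igcm-3 lies nearer, at 25850 bp. No difference between these groups was tested.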

How the data were processed

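ChIP-seq of tagged CEH-48 was done on 2 biological replicates of 1 group, with replicate numbers from the labels. Labels name a GFP antibody in the description and ceh-48 in the antibody tag. The authors listed peaks and background for each replicate and for both pooled, with the same further input, and derived the IDR regions from those lists, per the read-me files deposited. The signal per region is the authors' deposited value. The −log10 q-value per region, likewise made by the authors before the lists were deposited, was not used. No source used here names the aligner, the peak caller or their thresholds. The 1840 IDR regions are the pooled regions of highest signal. The ce11 lists were joined to Ensembl release 115 (WBcel235), where no region ran past a chromosome end; the ce10 lists were not used.

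The members, lists and alternatives were chosen with earlier results of these data known. All 10 members, pathway genes with an IDR summit, and genes with a nearer 5′ end are named by rule. Of the other pathway genes, those named were chosen after their values were seen. So were the regions with summits just outside windows and the rimb-1 stretch. In the pathway list RAB-27 was matched as aex-6. No test was run, as there is 1 group. The code was tested on simulated data. Python 3.11.15, numpy 2.4.6, pandas 2.3.3 and matplotlib 3.10.9 were used.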

Additional observations from a re-analysis of the deposited data

How the results depend on the processing

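Of 47 alternative values, 42 stayed within 1.5 times the value reported (within 1 SD for the replicate difference). For counts this small the band is wide, since a change from 6 to 4 genes stays inside it, and counts at their maximum could only fall. The tally therefore says little about stability. The number of genes with an IDR summit ranged from 4 to 7 of 10: it was 4 within 3 kb of the 5′ end, where rimb-1 and cla-1 dropped out (12.5% of all protein-coding genes), 5 with 1 kb upstream, without aex-3 (8.59%), and 7 with 5 kb upstream (14.8%) or by nearest 5′ end (8.03%), both adding unc-10. The 8 summits became 4 within 3 kb of the 5′ end and 5, at 5 genes, among the 920 IDR regions of highest signal (6.29% of all genes). Counting any overlap of a region with the window gave 9 IDR regions at the same 6 genes (12.6% of all genes). Leaving out replicate 2 or replicate 1 gave 10 summits each. The 10 from replicate 1 include 2 from a single rimb-1 interval, from 1805584 to 1805952. Any listed region lay at 9 and 10 members (74.4% and 65.1% of all protein-coding genes). The pathway genes with a summit were 14 and 17 of 37 (11.5% and 11.9% of all genes). ATCGAT was at 6 and 5 of the 10 summits, against 43.5% and 41% of the 1840 strongest regions. Without aex-6 the pathway count in the IDR set was 13. Summits matched in both replicates fell to 6 within 50 bp. An annotated transcript start, of any gene, lay within 1 kb of 4 of the 8 summits (77.3% of all IDR summits). It lay within 500 bp of 2 (66.8%) and within 200 bp of 2 (47.3%), and 2 were within 1 kb of the outermost start of a gene (73.3%). ATCGAT was in 7 of 8 windows of 200 bp (50.1% of all IDR summits) and 4 of 8 of 50 bp (31.7%). No paired analysis was possible because there is 1 group. Unknown depth limits what the lack of a region shows.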

Other observations

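The IDR regions at these genes differ in width as well as in sequence. Those of rab-3, syd-2, syd-1 and rimb-1 intron 19 are 127, 170, 182 and 179 bp wide, and each holds ATCGAT within 50 bp of its summit. The regions of aex-3, cla-1 and the rimb-1 exon have the commonest width of the set, 370 bp, and none holds it there. The strongest rimb-1 region goes against this split, since it is 577 bp wide and holds 2 copies there. The split also depends on the 50 bp limit. The cla-1 and rimb-1 exon regions hold 2 and 1 copies in all, the nearest 58 and 51 bp from the summit. Counted over whole regions, ATCGAT was in 7 of the 8, and in 54.3% of all IDR regions. Over all IDR regions, 48.6% of the 693 narrower regions and 41.6% of the 1147 others had ATCGAT within 50 bp of the summit. The split by width was noticed after the values were seen and was not tested.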
